A study of Mus musculus with 4 samples.

Results

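The endoplasmic reticulum (ER) genes described here are a list of 53 genes for protein translocation into the ER, folding there, retrieval to it and disposal from it. They were chosen by name. Of the 53, 52 had a probe set that names 1 gene, out of 18194 such genes on the array. Sec61g, a small translocon subunit, shares its probe set with other genes and has no value here. Where a gene had several probe sets, the one whose values averaged highest across the arrays stands for it, and 51 genes were measured, that is, at or above a log2 value of 5 on at least 1 array of each pair. Derl3, a derlin known from secretory cells, lay between 2.53 and 2.74 on all 4 arrays and counts as not measured.

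The 4 arrays form 2 pairs, all from the colon of male mice, with 1 array per group. The GFP pair came from H2B-GFP mice, in which a tetracycline-responsive element drives a histone H2B-GFP fusion. After 7 days of doxycycline and 2 days without it, crypt cells were sorted into GFPhigh, which had kept the label and are taken as non-proliferating, and GFPlow, which had diluted it by dividing. The Dox pair came from isolated crypts of mice with doxycycline-inducible β-catenin, a gene that both of its groups carried. Dox minus mice were untreated, and Dox plus mice drank doxycycline at 2.0 mg/ml for 5 days. The agent and the induction therefore cannot be told apart in the Dox pair, while both GFP groups had been given doxycycline. The sources used here do not give the transactivator line or the mice's age, strain and number per array.

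Secreted and membrane proteins enter the ER through the Sec61 channel, fold with the help of chaperones such as BiP, receive disulfide bonds from protein disulfide isomerases, and leave in COPII vesicles. Chaperones that escape carry a KDEL-type tail, are bound by KDEL receptors in the Golgi and return in COPI vesicles, while proteins that do not fold are sent to the proteasome by ER-associated degradation (ERAD). The sensors IRE1, ATF6 and PERK read the folding load and start the unfolded protein response. In the colon these genes are known above all from goblet cells, which secrete large amounts of disulfide-linked mucin.

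Part of this response acts through known promoter elements. The promoters of 8 of the genes, chosen after values were seen, are shown as a description. The sequences are from RefSeq, build GRCm38.p6, and are printed 5′ to 3′ on the strand of the gene, from 120 bases before the annotated start to the last base before it. Capitals mark matches to the ER stress element (ERSE: CCAAT, any 9 bases, CCACG) or to the core TGACGTGG, on either strand. Hspa5, Dnajc3 and Syvn1 are genes with an ERSE and no 2-fold difference, Pdia6 has an ERSE and a 2-fold difference, and Pdia5 has a 2-fold difference and neither element. Kdelr3, Sec24d and Copb1 are the genes that hold the core among the 42 of the list whose promoters could be searched.
Hspa5, chr2:34771970-34772089, plus strand: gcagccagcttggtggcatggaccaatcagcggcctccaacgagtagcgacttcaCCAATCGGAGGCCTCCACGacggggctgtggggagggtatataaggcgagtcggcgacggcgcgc
Dnajc3, chr14:118937812-118937931, plus strand: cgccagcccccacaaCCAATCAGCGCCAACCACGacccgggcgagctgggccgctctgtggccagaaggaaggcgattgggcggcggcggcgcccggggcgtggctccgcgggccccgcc
Syvn1, chr19:6046456-6046575, plus strand: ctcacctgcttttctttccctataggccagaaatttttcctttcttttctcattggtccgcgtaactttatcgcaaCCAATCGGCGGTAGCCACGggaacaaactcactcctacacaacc
Pdia6, chr12:17266469-17266588, plus strand: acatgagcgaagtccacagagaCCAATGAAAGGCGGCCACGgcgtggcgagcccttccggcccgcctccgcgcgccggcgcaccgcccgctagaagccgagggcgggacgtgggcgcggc
Pdia5, chr16:35490874-35490993, minus strand: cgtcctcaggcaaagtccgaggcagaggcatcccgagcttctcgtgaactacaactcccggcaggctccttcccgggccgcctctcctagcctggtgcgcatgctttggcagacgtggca
Kdelr3, chr15:79516288-79516407, plus strand: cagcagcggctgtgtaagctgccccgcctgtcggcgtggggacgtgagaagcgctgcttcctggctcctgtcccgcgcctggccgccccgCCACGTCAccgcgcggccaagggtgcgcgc
Sec24d, chr3:123267376-123267495, plus strand: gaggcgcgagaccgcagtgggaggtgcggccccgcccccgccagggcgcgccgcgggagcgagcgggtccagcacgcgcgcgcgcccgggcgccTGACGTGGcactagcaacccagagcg
Copb1, chr7:114254681-114254800, minus strand: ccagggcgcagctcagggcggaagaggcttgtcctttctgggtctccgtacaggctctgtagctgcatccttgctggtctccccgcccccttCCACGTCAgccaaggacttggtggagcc

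The table of promoters, each from 250 bases before to 50 after a start, held 42 of the 53 genes. An ERSE was found in 9 of these 42, namely Hspa5, Hsp90b1, Calr, Canx, Dnajc3, Creld2, Pdia6, Syvn1 and Derl3, against 37 of all 27025 genes in the table (0.137%). Hsp90b1 held a pair of them. ERSE-II (ATTGG, any 1 base, CCACG) was found in Dnajb11 and Herpud1, against 0.0444% of all genes. The core TGACGTGG was found in 3 genes (0.714% of all genes), at 30 bases before the start in Kdelr3, 28 in Copb1 and 26 in Sec24d, and TGACGTGA in Hspa5 alone (0.507%). In these windows ERSE and ERSE-II matches did not overlap the cores. The ERSE was described on promoters of ER chaperones, so its presence in them is background and not a result of these arrays, and a match is a description of letters, not of a bound site.

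Expression was deposited as log2 GCRMA values. The arrays correlated within a pair at Pearson r = 0.985 and across pairs at 0.930 to 0.941, and differences were taken within a pair. All 10 epithelial markers with a value, Epcam and Cdx2 among them, were at or above 10.2 on every array. The value of 5 served as a floor: lower values were set to it. A log2 difference of 1 or more either way (2-fold) was counted. No group has a second array, so no test between groups was possible and overlap between groups cannot be judged. As a scale, probe sets of the same gene differed in their log2 difference by a median of 0.32 in the GFP pair (6632 comparisons) and 0.34 in the Dox pair (6454). A difference inside that spread is called small here. The spread compares probe sets on the same 2 arrays, so it does not measure error between arrays, samples or mice.

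Dividing cells had somewhat higher values of most ER genes, and of a few much higher. In GFPlow against GFPhigh, 45 of the 51 measured genes had the higher value in GFPlow, against 53.2% of all 9381 measured genes. The median log2 difference was 0.31, against 0.04 over all genes. Kdelr3, Pdia5, Pdia6, Sec24d and Ern2 were 2-fold or more higher and 0 were 2-fold or more lower, where the shares over all genes were 8.81% and 4.30%. Thus 5 of 51 is near the share among all genes, and most of the 45 differences were small or under 2-fold. Most of the list lies high on the scale, where 2-fold differences were less frequent. Among the 3580 genes with a mean of 10 or more over the 4 arrays, 3.41% were 2-fold or more higher in GFPlow and 2.63% lower, 47.9% had the higher value there, and the median was -0.02. The ER counts given here are for the whole list and not for that set. Of the 5 genes past 2-fold, Kdelr3 (mean 7.42), Sec24d (9.38) and Ern2 (9.42) lie outside it, and Pdia5 (10.26) and Pdia6 (10.58) inside it. At 1.5-fold, 10 ER genes were higher, against 18.4% of all genes, and 0 lower, against 12.6%. Beyond the probe set spread lay 24 ER genes in favour of GFPlow and 2 in favour of GFPhigh, against 30.3% and 24.3% of all genes. In sorted or mixed cells, more cells of a type and more RNA per cell cannot be told apart.

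After doxycycline the ER genes had no common direction. In Dox plus against Dox minus, 25 of 51 had the higher value in Dox plus, against 55.0% of all 9537 measured genes, and the median was -0.02, against 0.06. Kdelr3 and Pdia4 were 2-fold or more lower (5.35% of all genes) and 0 were 2-fold or more higher (6.93%). Over all genes 661 were 2-fold or more higher and 510 lower as deposited, a split that turned to 536 and 598 with quantile scaling and to 516 and 611 with loess, so directions of small differences in this pair depend on the scaling. Among the 3580 genes with a mean of 10 or more, 2.26% were 2-fold or more higher and 3.83% lower, and 50.5% were above 0. Kdelr3 (mean 7.42) and Pdia4 (9.18) both lie outside that set. At 1.5-fold, Sec61b, Sec63, Spcs3 and Ern2 were higher (17.4% of all genes) and Pdia4, Kdelr3, Edem1 and Ern1 lower (11.7%). Beyond the spread lay 7 genes in favour of Dox plus and 10 in favour of Dox minus, against 30.1% and 20.5% of all genes, so most of the list differed little.

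**Figure D1:**
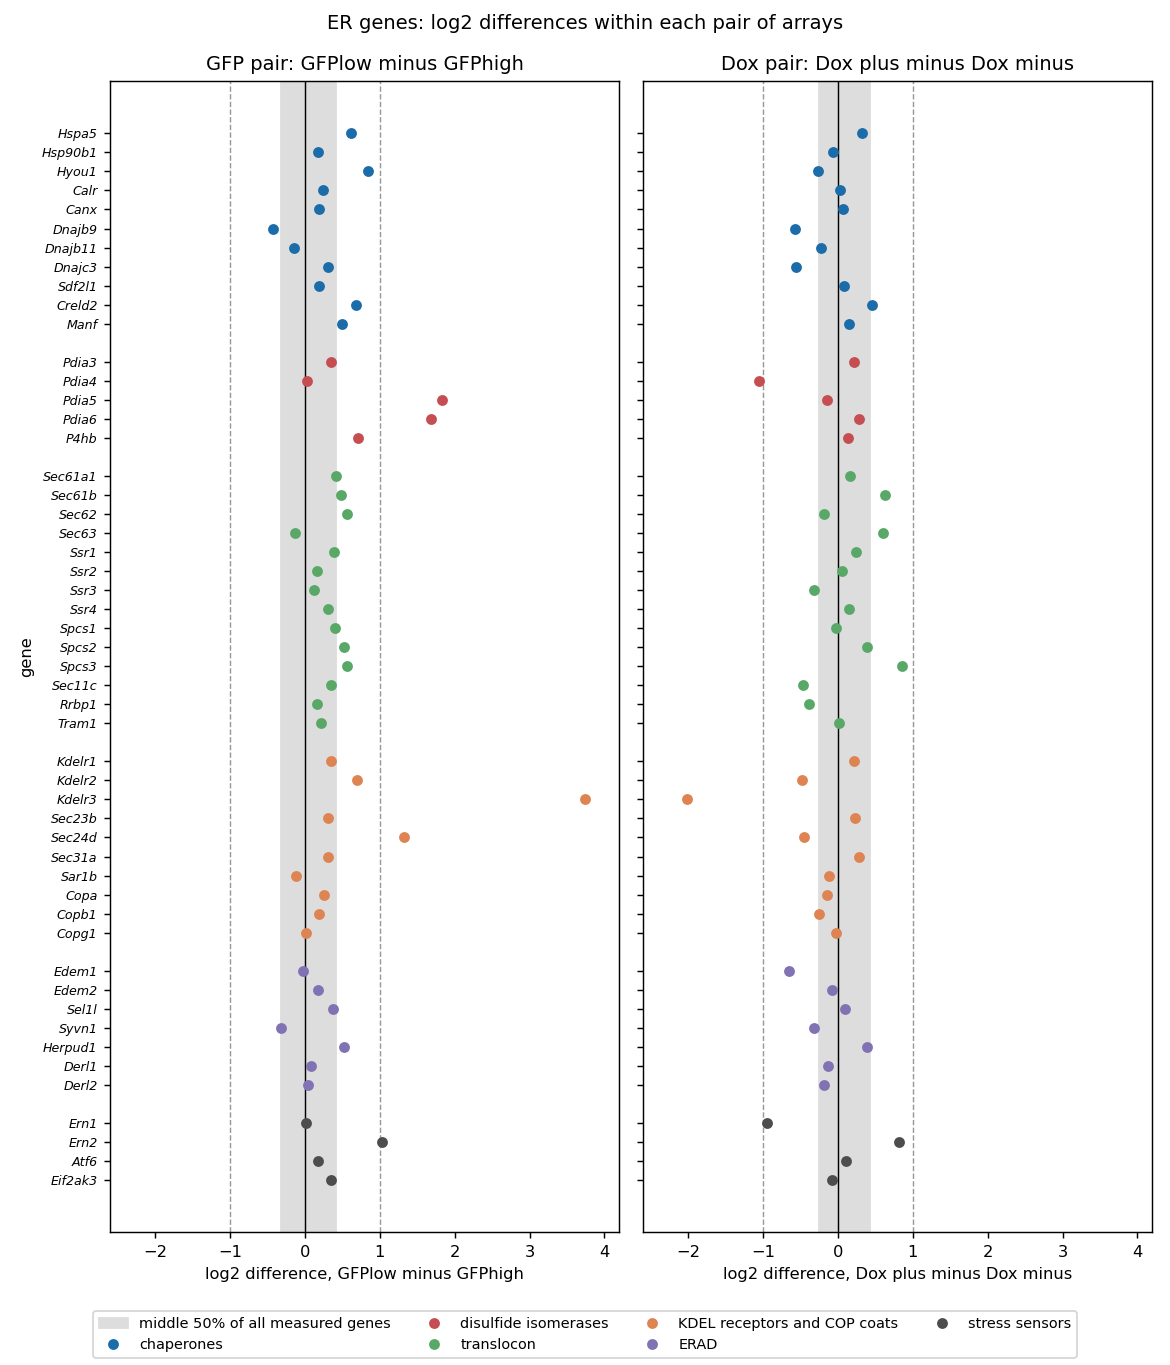
Log2 difference of each of the 51 measured ER genes (rows, grouped and coloured by role) in the GFP pair (left) and the Dox pair (right), with 1 array per group; the grey band spans the middle 50% of all measured genes and dashed lines mark 2-fold. In the GFP pair 45 points lie right of 0 and Kdelr3 stands farthest out at 3.75, and in the Dox pair the points lie on both sides, with Kdelr3 at -2.02.

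Retrieval and transport held the gene with the largest difference in both pairs. Kdelr3, one of the 3 receptors that return KDEL-tailed proteins to the ER, read 5.27 in GFPhigh, 9.02 in GFPlow, 8.70 in Dox minus and 6.68 in Dox plus. It was near the floor in GFPhigh and far above it in GFPlow, and in the crypt pair it was lower with doxycycline than without it. The differences were 3.75 (13.4-fold higher in GFPlow) and -2.02 (4.06-fold lower in Dox plus). Because GFPhigh lay so close above the floor, a floor of 6 lowers the first to 3.02, while a floor of 4 or no floor leaves it at 3.75.

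Its paralogs differed less. Kdelr2 read 13.20 in GFPhigh, 13.89 in GFPlow, 12.74 in Dox minus and 12.26 in Dox plus, which gave 0.69 and -0.48, in the same directions as Kdelr3. Kdelr1 read 12.14, 12.49, 11.79 and 12.01 on the same arrays, which gave 0.35 and 0.21. All 3 receptors thus had the higher value in dividing cells, and in the Dox pair Kdelr1 lay on the other side of 0 from the other two, by less than the probe set spread.

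Sec24d, a cargo-binding subunit of the COPII coat, read 9.10 in GFPhigh, 10.42 in GFPlow, 9.22 in Dox minus and 8.77 in Dox plus. It was 1.32 (2.50-fold) higher in GFPlow and differed by -0.45 in the Dox pair. The other COPII genes stayed small: Sec23b, its inner-coat partner, Sec31a of the outer cage and the GTPase Sar1b ranged from -0.12 to 0.31 in the GFP pair and from -0.12 to 0.28 in the Dox pair. COPI genes, which code for the coat of retrograde vesicles, differed little by their main probe sets. Copa, Copb1 and Copg1 ranged from 0.02 to 0.25 in the GFP pair and from -0.25 to -0.02 in the Dox pair, with Copg1 nearest 0 in both. A further probe set of Copg1 gave 0.51 and -0.44, both beyond the probe set spread, so the size of its differences is not settled. Copb1 holds the same promoter core as Kdelr3 and Sec24d, at a like distance from its start, with differences of 0.19 and -0.25. Both of Copb1's values lie inside the probe set spread. The combination of a value above 0 in the GFP pair and below 0 in the Dox pair, which the 3 genes with the core had, was held by 41.2% of the measured ER genes and 16.0% of all genes.

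Disulfide isomerases, which form and rearrange disulfide bonds, had the highest median of the 6 roles in the GFP pair. All 5 had the higher value in GFPlow, with a median of 0.71. Pdia5 read 9.20 in GFPhigh, 11.03 in GFPlow, 10.47 in Dox minus and 10.33 in Dox plus, which gave 1.83 (3.55-fold higher in GFPlow) for the sorted cells and -0.14 for the crypts. Pdia6, which also binds BiP, read 9.34, 11.03, 10.84 and 11.12 on the same arrays, which gave 1.68 (3.21-fold) and 0.28. Both were thus well apart between the sorted groups and close together in the crypt pair. P4hb, the founding member of the family, differed by 0.71 and 0.13, and Pdia3, which works with calnexin and calreticulin on glycoproteins, by 0.34 and 0.22.

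Pdia4 behaved otherwise. It read 9.39 in GFPhigh, 9.43 in GFPlow, 9.48 in Dox minus and 8.42 in Dox plus, so that Dox plus was the low array. The difference was 0.03 in the GFP pair, the isomerase nearest 0 there, and -1.06 (2.08-fold lower) in the Dox pair. The other 4 isomerases ranged from -0.14 to 0.28 in the Dox pair.

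**Figure D2:**
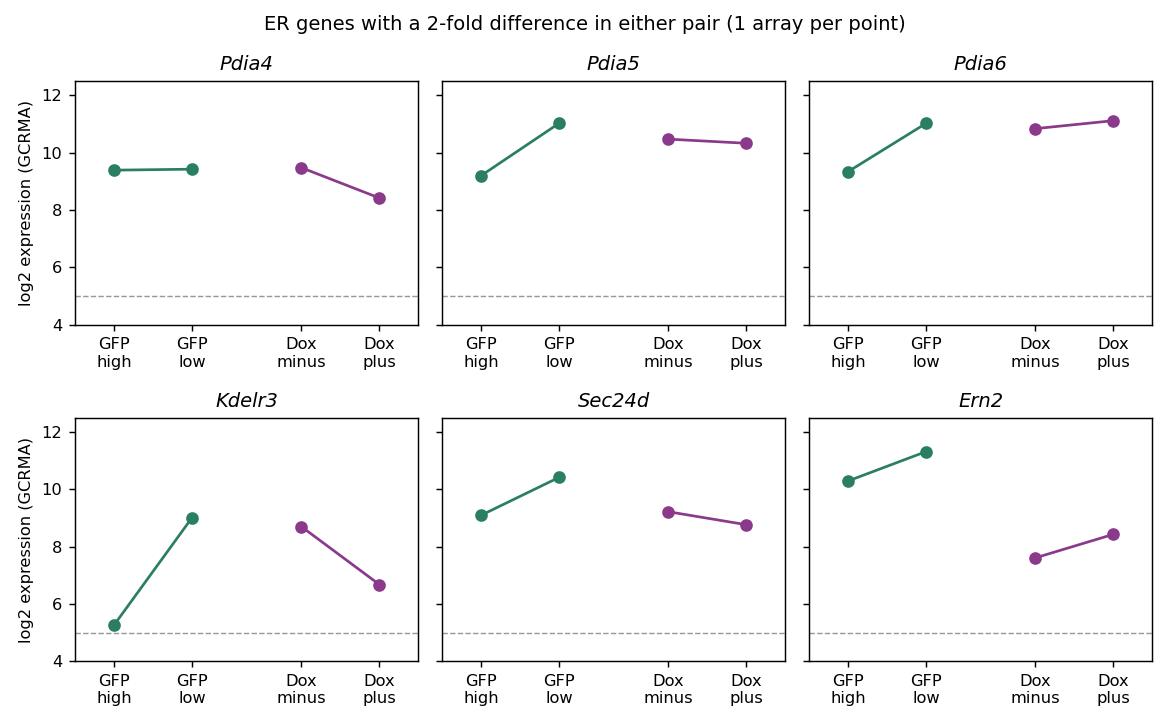
Log2 expression (GCRMA) of the 6 ER genes with a 2-fold difference in either pair, 1 point per array; green lines join GFPhigh to GFPlow, purple lines Dox minus to Dox plus, and the dashed line is the floor of 5. Kdelr3 goes from 5.27 to 9.02 in the GFP pair and from 8.70 to 6.68 in the Dox pair, whereas Pdia4 passes 2-fold only in the Dox pair and Pdia5, Pdia6 and Sec24d pass 2-fold only in the GFP pair.

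Chaperones showed no 2-fold difference in either pair by their main probe sets. In the GFP pair 9 of 11 were above 0 (median 0.25), against 53.2% of all genes. In the Dox pair 6 of 11 were (median 0.02), against 55.0%. Hspa5, which codes for BiP, the central ER Hsp70, read 13.03 in GFPhigh, 13.65 in GFPlow, 13.82 in Dox minus and 14.14 in Dox plus, which gave 0.62 and 0.32. Hyou1, its nucleotide exchange factor, read 8.38, 9.22, 8.56 and 8.30 on the same arrays, which gave 0.84 for the sorted cells and -0.26 for the crypts. Its second measured probe set gave -0.56 in the GFP pair, so the direction of Hyou1 was not settled there.

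By their main probe sets, Hsp90b1, the ER Hsp90, and the lectin chaperones Calr and Canx ranged from 0.18 to 0.25 in the GFP pair. In the Dox pair they ranged from -0.06 to 0.07, with Calr (0.02) nearest 0. Further probe sets gave 1.13 for Hsp90b1 and 0.20 and 0.93 for Canx in the GFP pair. In the Dox pair these gave 0.21 for Hsp90b1 and 0.68 and 0.33 for Canx, so the sizes for Hsp90b1 and Canx are not settled. The small stress-induced proteins Creld2, Manf and Sdf2l1 were above 0 in both pairs, at 0.19 to 0.69 and 0.08 to 0.45. Of these, Creld2 read 10.66 in GFPhigh, 11.34 in GFPlow, 10.56 in Dox minus and 11.02 in Dox plus.

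Of the 3 J proteins, co-chaperones that stimulate BiP, 1 was above 0 among the sorted cells and 0 among the crypts. Dnajb9, a target of the IRE1 arm that also restrains IRE1, read 10.91 in GFPhigh, 10.48 in GFPlow, 11.93 in Dox minus and 11.36 in Dox plus, which gave -0.43 and -0.57. It was thus lower in dividing cells and lower after doxycycline. Dnajc3, which also inhibits PERK, read 10.47, 10.77, 11.16 and 10.60 on the same arrays, which gave 0.31 and -0.56. The other measured probe sets of Dnajc3 ranged from -0.22 to 1.03 and from -1.53 to 0.15, so its size is not settled. Dnajb11 differed by -0.15 and -0.22, both inside the probe set spread.

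Genes of translocation and early processing held no 2-fold difference in either pair by their main probe sets. In the GFP pair 13 of 14 were above 0 (53.2% of all genes), with a median of 0.37 and a range from -0.13 to 0.56. In the Dox pair 9 of 14 were above 0 (55.0% of all genes), with a median of 0.10 and a range from -0.47 to 0.86. Sec62, which helps post-translational import, was among the largest in the GFP pair at 11.36 in GFPhigh and 11.92 in GFPlow, a difference of 0.56, and read 11.05 in Dox minus and 10.87 in Dox plus. Its partner Sec63, a J protein of the channel, was the one gene below 0 in the GFP pair (-0.13) and differed by 0.60 in the Dox pair. Its 4 other measured probe sets were all above 0 in the GFP pair, from 0.07 to 0.85, and ranged from -0.14 to 1.05 in the Dox pair, so the direction of Sec63 in the GFP pair was not settled.

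The channel subunits Sec61a1 and Sec61b differed by 0.41 and 0.48 in the GFP pair. Sec61b read 12.47 in Dox minus and 13.10 in Dox plus, a difference of 0.63, after 13.43 in GFPhigh and 13.91 in GFPlow. The 4 subunits of the translocon-associated protein complex, Ssr1 to Ssr4, ranged from 0.12 to 0.39 and from -0.32 to 0.25. The signal peptidase, which removes the signal sequence, was split in the Dox pair by its main probe sets. Its subunit Spcs3 read 10.32 in GFPhigh, 10.89 in GFPlow, 10.64 in Dox minus and 11.50 in Dox plus, which gave 0.56 and 0.86, the latter being the highest value of the whole list in the Dox pair. Spcs2 lay at 0.38 there, Spcs1 at -0.03 and the catalytic subunit Sec11c at -0.47, while all 4 ranged from 0.35 to 0.56 in the GFP pair. Further probe sets gave 0.40 for Spcs2, 0.15 for Spcs1 and, near the floor, -0.14 for Sec11c in the Dox pair. The low side of the split thus rests on 1 probe set of Sec11c. Rrbp1, the ribosome-binding protein of the rough ER, differed by 0.16 and -0.38, and Tram1, which aids nascent chains into the channel, by 0.21 and 0.01.

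ERAD genes differed little in the GFP pair, with 5 of 7 above 0 (53.2% of all genes) and a median of 0.08. In the Dox pair 2 of 7 were above 0 (55.0% of all genes), with a median of -0.13. Herpud1, a stress-induced scaffold of the ubiquitin ligase complex, was the highest in both. It read 10.94 in GFPhigh, 11.46 in GFPlow, 10.71 in Dox minus and 11.09 in Dox plus, which gave 0.53 and 0.39. Edem1, which marks misfolded glycoproteins, was the lowest in the Dox pair, with 9.99 in Dox plus against 10.64 in Dox minus (-0.65). It read 11.19 in GFPhigh and 11.16 in GFPlow.

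Sel1l and Syvn1 code for the adaptor and the ubiquitin ligase of the same complex. Sel1l read 10.30 in GFPhigh, 10.67 in GFPlow, 9.94 in Dox minus and 10.03 in Dox plus, which gave 0.37 and 0.09. Its 3 other measured probe sets gave -0.35, -0.41 and -0.10 for the sorted cells and 0.22, 0.31 and 0.21 for the crypts. Syvn1 gave -0.32 and -0.33, and its other probe set -0.11 and 0.42. The direction of Sel1l in the GFP pair and of Syvn1 in the Dox pair thus depended on the probe set. Edem2, Derl1 and Derl2 ranged from 0.03 to 0.18 and from -0.19 to -0.09, with Derl2 (0.03) close to 0 in the GFP pair.

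Of the 4 stress sensors the intestinal IRE1 paralog differed most in the GFP pair. Ern2, which codes for IRE1β, known from mucus-secreting epithelia, read 10.30 in GFPhigh, 11.32 in GFPlow, 7.61 in Dox minus and 8.43 in Dox plus. The differences were 1.02 (2.03-fold), just past the 2-fold threshold, and 0.82, so that the higher value stood in the proliferating and in the β-catenin group. Ern1, the widely expressed IRE1α, read 10.63, 10.64, 9.91 and 8.96 on the same arrays, which gave 0.01 for the sorted cells and, for the crypts, -0.95, just inside the threshold. Quantile and loess scaling moved Ern1 past 2-fold in the Dox pair, and the mean of its probe sets gave -0.51 there. In the GFP pair that mean was -0.32. Other measured probe sets of Ern1 gave -0.04 there and, at 6.03 in GFPhigh and 5.10 in GFPlow, -0.93. Its small difference in the GFP pair is thus not settled. The IRE1 paralogs thus lay on opposite sides of 0 in the Dox pair. Atf6 read 9.79, 9.96, 8.81 and 8.92, which gave 0.17 and 0.10. Eif2ak3, the gene for PERK, read 9.60, 9.94, 9.71 and 9.63, which gave 0.35 and -0.08.

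Set side by side, 21 of the 51 ER genes (41.2%) were above 0 in the GFP pair and below 0 in the Dox pair, a combination held by 16.0% of the 9023 genes measured in both pairs. A further 24 were above 0 in both, against 37.4% of all genes, 5 were below 0 in both, against 28.6%, and 1, Sec63 by its main probe set alone, was below 0 in the GFP pair and above 0 in the Dox pair, against 17.9%. These counts include many small differences. Across the 51 genes the differences of the pairs gave Pearson r = -0.28 and Spearman rho = 0.36, and without Kdelr3 they gave 0.29 and 0.44 over 50 genes, against 0.29 and 0.39 over all 9023. The negative r thus rests on Kdelr3. These coefficients describe genes measured on the same 4 arrays, which are not independent replicates.

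**Figure D3:**
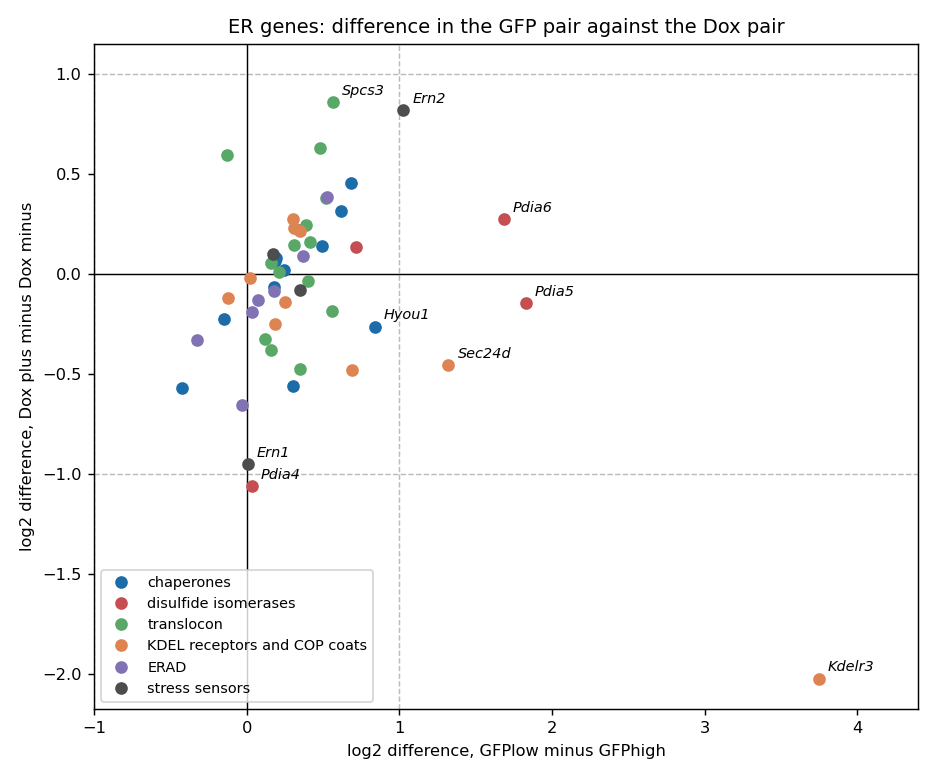
Log2 difference of the 51 measured ER genes in the GFP pair (horizontal) against the Dox pair (vertical), coloured by role, with dashed lines at 2-fold and names given past 0.8 in either pair. Kdelr3 stands alone at 3.75 and -2.02, and 21 genes lie right of 0 and below 0.

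None of the 6 genes past 2-fold has a second measured probe set, so each of these values rests on 1 probe set per array. For the others, 50 further probe sets of 27 genes were measured in the GFP pair. Of these 30 had the direction of the gene's main probe set, 32 were above 0, and the median gap to the main value was 0.21. In the Dox pair, 35 of 48 had the same direction, with a median gap of 0.27. Directions of single genes with differences of that size are therefore not settled by these arrays.

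Differences are given here by promoter motif, as a description. The 8 measured genes with an ERSE had a median of 0.28 in the GFP pair, from -0.32 (Syvn1) to 1.68 (Pdia6), and of 0.05 in the Dox pair, from -0.56 (Dnajc3) to 0.45 (Creld2). The 27 measured genes whose promoter held none of the 4 motifs had medians of 0.31 and -0.03. The 3 genes with the core TGACGTGG had medians of 1.32 and -0.45.

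Genes of the same pathway outside the list give the setting. Among other disulfide enzymes and chaperones, the median in the GFP pair was 0.44 over 22 measured genes. Of these, 3 were higher in GFPlow by 2-fold or more and 0 lower, against 8.81% and 4.30% of all genes. The 3 were Fkbp11, a prolyl isomerase of secretory cells, Prdx4, an ER peroxiredoxin (1.89), and the disulfide isomerase Txndc5 (1.75). Fkbp11 read 4.88 in GFPhigh, 7.79 in GFPlow, 7.47 in Dox minus and 5.79 in Dox plus, hence a difference of at least 2.79 between the sorted groups and of -1.68 after doxycycline, the directions that Kdelr3 showed. Agr2, the isomerase needed for mucin folding, differed by 0.99 and -0.43. In the Dox pair 2 of 23 were 2-fold or more lower, Fkbp11 and the disulfide reductase Dnajc10 (-1.16), and 0 higher, with a median of -0.17. Over all genes 5.35% were 2-fold or more lower there and 6.93% higher. Fkbp14, at -0.88 as a bound, was not past the threshold.

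Signal recognition particle and oligosaccharyltransferase genes, which target nascent chains and attach N-glycans, resembled the translocon. In the GFP pair 16 of 19 were above 0 (53.2% of all genes), with a median of 0.37 and 0 past 2-fold. Ddost (0.84), Krtcap2 (0.82) and Srp19 (0.77) differed most. In the Dox pair 14 of 19 were above 0 (55.0% of all genes), with a median of 0.14, 0 past 2-fold, and Srprb at 0.65. Further coat and cargo receptor genes had medians of 0.18 and -0.12 over 40 genes. The cargo receptor Lman1 (1.46) and Tmed6 (at least 2.04) were 2-fold or more higher in GFPlow, against 8.81% of all genes. In the Dox pair Tmed6 was 2.10 higher and Copz2 lower, at -1.03 as a bound, against 6.93% and 5.35% of all genes. Other ERAD genes had medians of -0.02 and -0.08 over 24 genes, with 12 and 11 above 0, and 1 past 2-fold, Dnajb12 (-1.24) in the GFP pair.

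Transcription factors and targets of the stress response were mixed, with 8 of 14 above 0 in the GFP pair (median 0.18) and 4 of 14 in the Dox pair (median -0.29). Over all genes 53.2% and 55.0% were above 0, and 8.81% were 2-fold or more higher in GFPlow. Xbp1, the factor activated by IRE1 splicing, differed by 0.49 and -0.22 in total message, which does not report on splicing. Creb3l4 (3.71) and Creb3l1 (1.07), membrane-bound factors of the ATF6 type, and the asparagine synthetase Asns (1.76) were 2-fold or more higher in GFPlow, and differed by -0.80, -0.91 and 1.06 in the Dox pair. Atf4, the PERK-arm factor, differed by 0.38 and 0.14, and the apoptosis-linked Ddit3 by -0.36 and -0.56. Atf3 differed by -0.21 and -1.52, while Trib3 and Chac1, targets of the same arm, were under the floor on all 4 arrays.

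**Figure D4:**
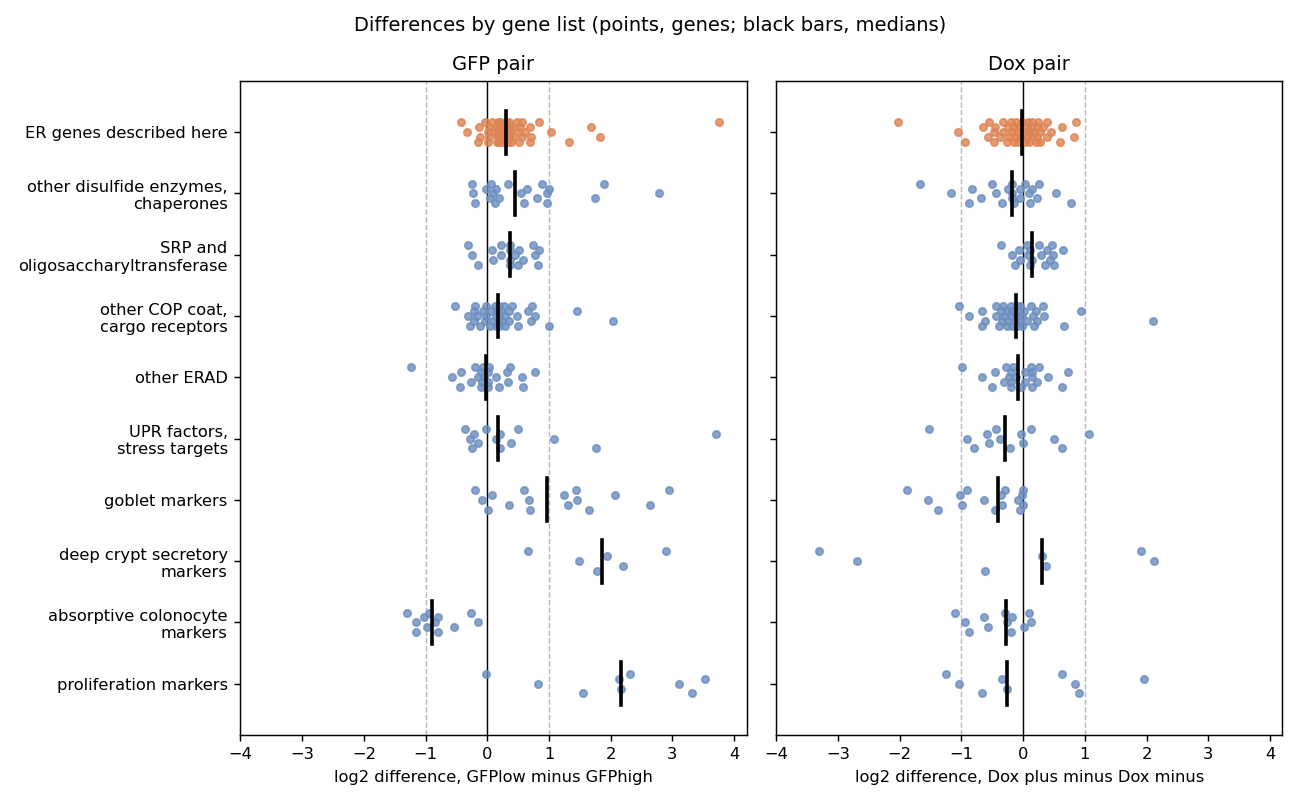
Log2 differences in the GFP pair (left) and the Dox pair (right) for the ER genes described here (orange) and further gene lists (blue); each point is a measured gene, black bars are list medians and dashed lines mark 2-fold. The ER genes center at 0.31 and -0.02, with goblet markers at 0.97 and -0.40 and proliferation markers at 2.17 and -0.27.

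Most goblet markers had the same directions as Kdelr3 in both pairs. Of 16 goblet markers 8 were 2-fold or more higher in GFPlow and 0 lower (median 0.97), against 8.81% and 4.30% of all genes. In Dox plus 4 were 2-fold or more lower and 0 higher (median -0.40), against 5.35% and 6.93%. Their summed level, as log2 of the summed linear values, was 17.85 in GFPhigh, 18.32 in GFPlow, 18.10 in Dox minus and 17.55 in Dox plus. All 16 were at or above the floor on every array. Spdef, a goblet transcription factor, differed by 2.94, the largest of the 16 in the GFP pair, and by -0.99. Tff3 (0.08), Clca1 (0.01), Zg16 (-0.09) and Muc13 (-0.20) differed little in the GFP pair. Atoh1 (0.002) and Spink4 (0.003) lay at about 0 in the Dox pair. Of 6 deep crypt secretory markers 5 were 2-fold or more higher in GFPlow and 0 lower (median 1.86). In the Dox pair the 7 measured were split, with 2 higher and 2 lower (median 0.30), from Ang4 (-3.30) and Itln1 (-2.69) to Mmp7 (1.91) and Pla2g2a (at least 2.11). Levels of some of these differed widely between the pairs, as for Pla2g2a, which read 12.22 in GFPhigh, 14.42 in GFPlow, 3.10 in Dox minus and 7.11 in Dox plus. The list had summed levels of 13.89, 15.93, 15.48 and 15.07 on the same arrays. Of 9 proliferation markers 7 were 2-fold or more higher in GFPlow and 0 lower (median 2.17). In GFPhigh 6 of them still reached the floor, with Mki67 at 9.68. In the Dox pair 4 were above 0 and 5 below, with 1 higher and 2 lower by 2-fold or more (median -0.27). The 5 below 0 were Mki67, Top2a, Cdk1, Plk1 and Aurkb, with Top2a (-0.27) inside the probe set spread. All 5 were above 0 in the GFP pair and so had the directions of Kdelr3 too. The 4 above 0 were Cdc6 (1.95), Mcm2 (0.91), Mcm3 (0.84) and Pcna (0.63), opposite to Kdelr3 in the Dox pair. In the GFP pair Cdc6 differed by -0.02, while Mcm2, Mcm3 and Pcna were higher in GFPlow. Absorptive colonocyte markers had medians of -0.90 and -0.27 over 12 genes. The part of cell composition in the differences of the ER genes was not tested.

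Plasma cells and pancreatic acinar cells are rich in ER too, and some of their markers were on these arrays. Of 13 plasma and B cell markers with a value, 2 reached the floor in each sorted group, 4 in Dox minus and 3 in Dox plus. Their summed level was 12.93 in GFPhigh, 12.62 in GFPlow, 13.66 in Dox minus and 13.28 in Dox plus, most of it from Sdc1, which epithelium also expresses. Igha, an antibody heavy chain, was under the floor in GFPhigh and read 6.90 in GFPlow, 8.57 in Dox minus and 7.03 in Dox plus, a difference of at least 1.90 between the sorted groups and of -1.54 after doxycycline. Jchain was under the floor in Dox plus, which makes its difference of -2.53 a bound. The defining genes Mzb1, Tnfrsf17 and Cd79a were under the floor on all 4 arrays.

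Of 15 pancreatic acinar genes, 2 reached the floor in each sorted group, 3 in Dox minus and 1 in Dox plus, with summed levels of 13.88, 14.04, 12.54 and 10.90. Cela1 carried most of that sum and differed by -1.36 in the Dox pair. Clps read 9.69 in Dox minus and Pnliprp2 8.78, and both were under the floor in Dox plus, with differences of -4.69 and -3.78 as bounds. The defining enzymes Cpa1, Cela2a and Ctrb1 were under the floor on all 4 arrays. The part of these cells in the differences of the ER genes was not tested.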

How the data were processed

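Labelled cRNA from 4 samples was hybridised to arrays, 1 per group. The authors deposited log2 values per probe set, which per the submitters' processing notes come from GCRMA; the sources used here do not give its version or which arrays were processed together. GCRMA models background from probe sequence, so low values say little about abundance. Of 45101 probe sets, 34958 name 1 gene in a platform annotation; 932 with several and 9211 with none were not used. Gene identifiers of 34754 matched a RefSeq table (GRCm38.p6), and 0 symbols changed.

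Python 3.11.15 with pandas 2.3.3 and statsmodels 0.14.6 were used. Values under 5 were set to 5, so a difference with 1 array under it is a lower bound. The number of arrays limits precision, and p-values were not computed. Difference code was tested on simulated data. Alternatives were floors of 4 and 6, no floor, quantile and loess (span 0.4) scaling, the mean of probe sets, leaving out _x_at, _s_at and _a_at probe sets, and a 1.5-fold threshold; leaving out Kdelr3, the probe set spread and a background of highly expressed genes were added after seeing the data. Genes past 2-fold, the 2 with the largest difference per role and pair, the KDEL receptors, Hspa5 and the sensors are given by array; of further lists, up to 3 genes per pair and Xbp1, Atf4, Ddit3 and Agr2. A few others, such as Trib3, were named after their values were seen. The promoters printed were chosen after values were seen. The genes and lists were chosen with earlier results of these data known.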

Additional observations from a re-analysis of the deposited data

How the results depend on the processing

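The 5 genes 2-fold or more higher in GFPlow and the 2 lower in Dox plus stayed past the threshold under every floor and both scalings. Of these genes only Kdelr3 has a value under 6, so the floors could not change the others. The mean of probe sets and the restricted probe sets could change none of these genes, since each has 1 measured probe set, of the plain kind. Sec11c joined the first under these settings, and Ern1 the second under quantile and loess scaling. A 1.5-fold threshold gave 10 higher in GFPlow (18.4% of all genes), 4 higher in Dox plus (17.4%) and 4 lower (11.7%). Without Kdelr3, 1 gene, Pdia4, was 2-fold lower in Dox plus. The median in the GFP pair ranged from 0.31 to 0.33, and that in the Dox pair from -0.04 to 0.05, the mean of probe sets turning its sign. Of 304 single-gene values under these settings 298 moved by less than the probe set spread. Many of the 298 could not move. A floor leaves values above it as they are, and a gene with 1 measured probe set keeps its value under the probe set settings. The others were Hyou1 (0.14 and -0.56), Sel1l (-0.12) and Ern1 (-0.32) in the GFP pair, Kdelr3 there (3.02 with a floor of 6), and Ern1 in the Dox pair (-0.51). No paired analysis was possible because each group had 1 array. Signal near background limits Kdelr3 in GFPhigh and Derl3 throughout.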

Other observations

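Some further probe sets of the ER genes passed 2-fold where the main one did not. In the GFP pair these belonged to Sec11c (1.84), Ssr1 (at least 1.72), Hsp90b1 (1.13) and Dnajc3 (1.03), higher in GFPlow, and Rrbp1 (-1.13), lower. In the Dox pair they belonged to Sec63 (1.05) and Dnajc3 (-1.53). Enteroendocrine markers, a secretory lineage not described above, had medians of -0.96 over 8 genes in the GFP pair and -2.50 over 10 in the Dox pair, where all 10 were 2-fold or more lower.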
